A study of Mus musculus with 6 samples.

Results

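The regions described here are stretches of mouse DNA that carried H3K4me1 in all 3 whisker pads, lay outside protein-coding genes, and were centred more than 1 kb and at most 50 kb from the nearest protein-coding start site. H3K4me1 is histone H3 with one methyl group on lysine 4. To find the regions, the peaks of the 3 pads were merged wherever they overlapped by at least 1 bp. Merged regions on chromosomes 1 to 19 were kept when they held a peak of every pad and were shorter than 15000 bp, and those that touched the 1 kb on either side of a start site were left out. Of 19251 merged regions, 8917 held a peak of all 3 pads, 8840 of these were on chromosomes 1 to 19, and 1115 met the rule. These 1115 regions, called the near regions below, made up 12.6% of the 8840 regions and 36.5% of the 3053 that were intergenic by the same definitions. The others were 1938 intergenic regions beyond 50 kb, 4018 regions centred inside genes, 1583 of any length over or beside start sites and 186 of 15000 bp or more away from start sites.

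The series profiled wild-type whisker pads of strain B6/J2 at embryonic day 12, freshly dissociated to single cells, by CUT&Tag, a method that tethers a transposase to an antibody bound to chromatin and sequences the DNA cut out around it. It holds 6 samples, of which 3 used an antibody against H3K4me1 and 3 used control IgG. IgG libraries are not analysed here, and the values below therefore stand without a measured background. A pad is a whole tissue that holds mesenchyme, surface epithelium, vessels, nerves and muscle, and a larger share of cells with the mark cannot be told apart from more of the mark per cell.

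In enhancers, which are DNA stretches that raise transcription of a gene from a distance, the nucleosomes flanking the bound factors typically carry H3K4me1, both where the enhancer is in use and where it is poised. Start sites of active genes carry the trimethylated form at their centre and H3K4me1 on their shoulders. Signals of the Wnt, BMP, Hedgehog and FGF families, exchanged between epithelium and mesenchyme, set the place and growth of whisker follicles, and their genes have many distant enhancers. The gene nearest to a region is used as its address below, and whether the region acts on that gene was not measured.

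The titles of all 3 H3K4me1 samples name the whisker pad, whereas the source name of replicates 2 and 3 gives adult kidney. The labels' protocol names whisker pads or adult kidney as the tissue for all samples. Titles were used for grouping, and the markers of both tissues were looked up among the genes nearest to peaks. No near region had an adult kidney marker as its nearest gene, with 0 of 24 markers, and none had a posterior Hox gene, a factor of trunk and tail, with 0 of 16. Over all protein-coding genes the share with a near region was 4.03%, at which lists this short hold few or none, so these zeros say little about the tissue. When each replicate's own peaks were placed by the same rule, 2 kidney markers had a peak in replicate 1, 2 in replicate 2 and 0 in replicate 3, and 1 was nearest to a region when only replicates 1 and 2 were required. The kidney share of 8.33% in replicates 1 and 2 was not below that of all genes, 7.02% and 5.69%. Of 39 facial mesenchyme factors, 28, 21 and 20 had one in replicates 1, 2 and 3. The share of facial factors was 53.8% and 51.3% in the replicates whose source name gives kidney, against 5.69% and 5.78% of all protein-coding genes in the same replicates. Genes differ in how much intergenic DNA is nearest to them, which these shares ignore. Per Mb of it, facial factors had 18.3 and 15.45 peaks in replicates 2 and 3, kidney markers 4.16 and 0, and all genes 3.82 and 3.79. The peak lists held 16788, 12969 and 13998 peaks, and the number of reads behind them is not in the lists. The near regions carried 8.40%, 9% and 8.19% of all signal within peaks in replicates 1, 2 and 3.

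Sequences of 8 near regions are shown first, as examples from the groups below. Each is the 300 bp around the median position of the 3 signal maxima, on the plus strand of GRCm38, and in each region the maxima of the 3 replicates lay within 200 bp of each other. Capitals mark matches, on either strand, to the 19 short motifs searched for below. The first sequence was chosen as the near region of highest rank, which holds the noncoding gene H19, and the second as the strongest of the remaining regions with a maximum inside an element that drove expression in the face of transgenic embryos. The other 6 rank highest in their gene list among regions whose maxima lay this close, and are named by the nearest gene, namely a BMP ligand, a mesenchymal repressor, a Wnt receptor, an inhibitor of BMP signalling, a Hedgehog co-receptor and an FGF feedback phosphatase. The repeat-masked share of the 300 bp ran from 0% in the first and second to 17.3% near Fzd2.
H19 locus (chr7:142572300-142572599): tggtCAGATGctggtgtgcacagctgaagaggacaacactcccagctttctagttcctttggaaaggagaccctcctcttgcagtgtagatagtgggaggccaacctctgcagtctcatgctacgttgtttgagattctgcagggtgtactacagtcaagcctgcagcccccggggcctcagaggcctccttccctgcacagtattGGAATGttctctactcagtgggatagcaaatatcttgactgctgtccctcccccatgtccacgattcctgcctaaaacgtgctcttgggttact
Hhat (chr1:192798275-192798574): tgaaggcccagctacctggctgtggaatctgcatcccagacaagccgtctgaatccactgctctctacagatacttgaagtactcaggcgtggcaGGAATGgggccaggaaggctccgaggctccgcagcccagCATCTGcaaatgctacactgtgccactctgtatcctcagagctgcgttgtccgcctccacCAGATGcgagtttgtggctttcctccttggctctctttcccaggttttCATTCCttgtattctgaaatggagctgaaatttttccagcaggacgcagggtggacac
Bmp2 (chr2:133566039-133566338): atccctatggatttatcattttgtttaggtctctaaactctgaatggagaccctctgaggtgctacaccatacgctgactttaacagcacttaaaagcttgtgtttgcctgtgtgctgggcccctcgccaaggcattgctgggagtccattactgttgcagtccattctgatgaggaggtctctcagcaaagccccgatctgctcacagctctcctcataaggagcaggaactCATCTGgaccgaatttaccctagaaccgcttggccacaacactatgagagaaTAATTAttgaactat
Twist2 (chr1:91758979-91759278): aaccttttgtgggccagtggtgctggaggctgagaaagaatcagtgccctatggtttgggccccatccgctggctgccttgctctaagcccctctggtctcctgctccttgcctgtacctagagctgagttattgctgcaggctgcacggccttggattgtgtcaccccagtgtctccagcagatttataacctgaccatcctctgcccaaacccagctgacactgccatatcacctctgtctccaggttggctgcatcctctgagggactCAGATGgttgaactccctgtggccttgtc
Fzd2 (chr11:102630979-102631278): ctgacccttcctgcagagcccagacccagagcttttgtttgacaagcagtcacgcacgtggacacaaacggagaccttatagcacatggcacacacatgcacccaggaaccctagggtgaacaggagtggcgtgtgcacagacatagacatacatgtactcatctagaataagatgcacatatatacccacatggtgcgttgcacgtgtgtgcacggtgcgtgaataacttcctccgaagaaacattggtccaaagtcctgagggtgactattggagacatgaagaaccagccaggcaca
Smad6 (chr9:64058313-64058612): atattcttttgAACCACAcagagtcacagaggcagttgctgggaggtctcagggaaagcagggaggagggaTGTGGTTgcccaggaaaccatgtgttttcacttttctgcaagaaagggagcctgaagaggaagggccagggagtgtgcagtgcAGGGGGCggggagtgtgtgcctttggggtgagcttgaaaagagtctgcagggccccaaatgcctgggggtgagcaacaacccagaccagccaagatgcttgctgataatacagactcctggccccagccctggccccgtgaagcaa
Boc (chr16:44565601-44565900): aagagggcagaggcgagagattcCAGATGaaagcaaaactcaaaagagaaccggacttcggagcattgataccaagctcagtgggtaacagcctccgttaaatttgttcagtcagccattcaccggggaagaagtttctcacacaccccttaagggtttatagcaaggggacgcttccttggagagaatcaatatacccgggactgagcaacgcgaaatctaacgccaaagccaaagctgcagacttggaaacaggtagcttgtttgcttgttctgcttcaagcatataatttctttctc
Dusp6 (chr10:99229132-99229431): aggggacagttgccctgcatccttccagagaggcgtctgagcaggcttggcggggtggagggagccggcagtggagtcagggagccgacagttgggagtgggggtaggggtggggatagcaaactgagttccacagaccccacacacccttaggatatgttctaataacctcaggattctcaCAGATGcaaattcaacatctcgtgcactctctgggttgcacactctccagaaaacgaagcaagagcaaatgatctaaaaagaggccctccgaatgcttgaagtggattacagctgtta

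All 3 maxima of the region at H19 fell on the same base, and those near Hhat and near Boc spanned 1 bp. Those near Fzd2 spanned 179 bp. The region at H19 held a CATCTG E-box, the core bound by basic helix-loop-helix factors such as Twist1, and a CATTCC TEAD core. The Hhat region held 2 of each. The region near Bmp2 held a homeobox core and an E-box, the one near Smad6 a pair of RUNX cores and a CTCF core, and the one near Fzd2 none of the 19.

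To describe how strong the near regions were, total signal was taken as the sum of the fragment pileup over a peak, and ranked within each replicate because the deposited signals are not scaled to depth. A percentile is the rank among all merged regions with a peak in that replicate. The median near region stood at percentiles 67.6, 61.1 and 57.9 in replicates 1 to 3, which averages 62.2 ± 4.94 (SD, n = 3). Percentile 50 was exceeded by 77.2%, 64.8% and 60.2% of the near regions, and percentile 90 by 13.0%, 10.1% and 8.61%. Since a region had to be found in 3 pads to enter, ranks above the middle are built into the rule. The first quartile lay at percentiles 51.6, 38.8 and 35.5.

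Compared with intergenic regions beyond 50 kb, the near regions ranked higher in replicates 1 and 2, by 2.25 and 5.94 percentile points, and lower in replicate 3, by 6.38. The mean difference was 0.604 ± 6.32 points, and the exact two-sided sign-flip permutation test over the 3 replicates gave p = 1. The smallest p that this test can give with 3 replicates is 0.25, so no comparison of this kind could pass 0.05. Regions over start sites ranked higher than the near regions in every replicate, with a difference, near minus start-site regions, of -10.4 ± 1.75 points (exact sign-flip p = 0.25). The same difference in peak length was -1144 ± 293 bp (exact sign-flip p = 0.25, n = 3). Start-site regions had no length limit, whereas near regions were under 15000 bp, and a longer region reaches a start-site window more readily. Lower length and total signal in near regions are thus partly built into the rule, and how far was not tested. The median peak of a near region measured 3549, 3858 and 3483 bp, and the difference from regions inside genes was -244.7 ± 129 bp, negative in 3 of 3 replicates. The median highest pileup was 47, 55 and 42 in near regions and 49, 58 and 42 at start sites, a difference of -1.67 ± 1.53 (exact sign-flip p = 0.5).

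**Figure D1:**
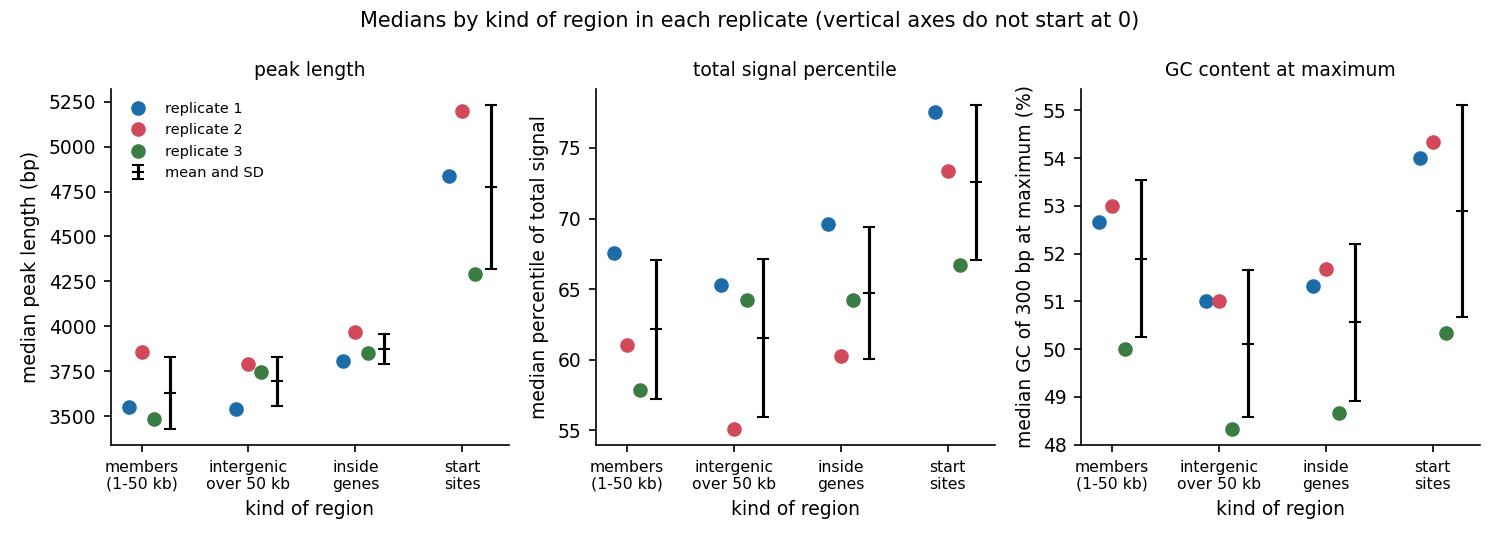
Median peak length in bp, median percentile of total signal and median GC content of the 300 bp at the maximum, for near regions (members), intergenic regions beyond 50 kb, regions inside genes and regions over start sites, with 1 point per replicate and the mean and SD beside them. Start-site regions, the only kind shown without the length limit of 15000 bp, are longer and rank higher in all 3 replicates. Near regions lie above the regions beyond 50 kb and inside genes in GC content in each replicate.

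GC content differed in 1 direction in every replicate from both the intergenic regions beyond 50 kb and the regions inside genes. The median GC of the 300 bp at the maximum was 52.7%, 53.0% and 50% in near regions, and 51.0%, 51.0% and 48.3% in intergenic regions beyond 50 kb. The difference was 1.78 ± 0.192 percentage points (higher in 3 of 3 replicates, exact sign-flip p = 0.25). Against regions inside genes it was 1.33 points in each replicate, and against start-site regions the difference was -1 ± 0.577 points. All replicates score the same regions and differ only in where the 300 bp lie. The spreads in GC therefore do not measure the uncertainty from the regions sampled. CpG dinucleotides reached 0.222 of the number that base composition would give in near regions, 0.222 beyond 50 kb and 0.231 at start sites.

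Base composition also moved with the differences between replicates. In the GC-poorest of 4 equal groups of near regions, of median 44.2%, the median percentile was 60.1, 47.0 and 66.9 in replicates 1, 2 and 3. In the GC-richest group, of median 52.4%, it was 79.1, 74.8 and 51.2. Replicates 1 and 2 therefore ranked GC-rich near regions higher and replicate 3 ranked them lower. The share of signal in replicate 3 over that in replicate 2 had a median log2 of 0.69 in the GC-poorest group and of -0.51 in the GC-richest. The part of base composition in the opposite sign of replicate 3 against regions beyond 50 kb was not tested.

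The position of the strongest signal recurred between pads. The median distance between the maxima of replicates 1 and 2 was 104 bp, of replicates 1 and 3 206 bp, and of replicates 2 and 3 232 bp, in regions of a median length of 4569 bp. All 3 maxima fell within 200 bp of each other in 379 near regions (34.0%) and within 500 bp in 607 (54.4%). Of each replicate's own peaks under the location rule, 56.2%, 68.7% and 72.9% fell in a region shared by all 3 pads, with differences from peaks beyond 50 kb of -4.34, -11.0 and 12.7 percentage points (exact sign-flip p = 1). For the maxima, regions beyond 50 kb gave distances of 89.0, 226 and 236 bp. The order of total signal across the near regions had a Spearman rho of 0.881 between replicates 1 and 2, 0.712 between 1 and 3 and 0.672 between 2 and 3, as a description over regions that share libraries.

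To ask where between genes the regions lie, each count was divided by the intergenic DNA available at that distance from a start site. The near regions numbered 43 at 1 to 5 kb, 164 at 5 to 10 kb, 253 at 10 to 20 kb and 655 at 20 to 50 kb. Per Mb of eligible DNA these were 0.661, 2.24, 2.21 and 3.19, and the regions beyond 50 kb came to 2.08. The low value next to genes comes from the rule, because 139 regions with a midpoint at the right distance and under 15000 bp touched a start-site window and were left out. With them kept, 1 to 5 kb held 2.72 regions per Mb. In each replicate's own peaks, the density at 20 to 50 kb was 1.55 ± 0.199 times that beyond 50 kb (higher in 3 of 3 replicates, exact sign-flip p = 0.25), and the density at 5 to 10 kb was 0.779 ± 0.0674 times that at 20 to 50 kb (lower in 3 of 3, exact sign-flip p = 0.25). Between 1 to 5 kb and 20 to 50 kb the ratio was 0.386 ± 0.0636 under the rule and 1.02 ± 0.0474 with the start-site windows kept (exact sign-flip p = 0.75).

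**Figure D2:**
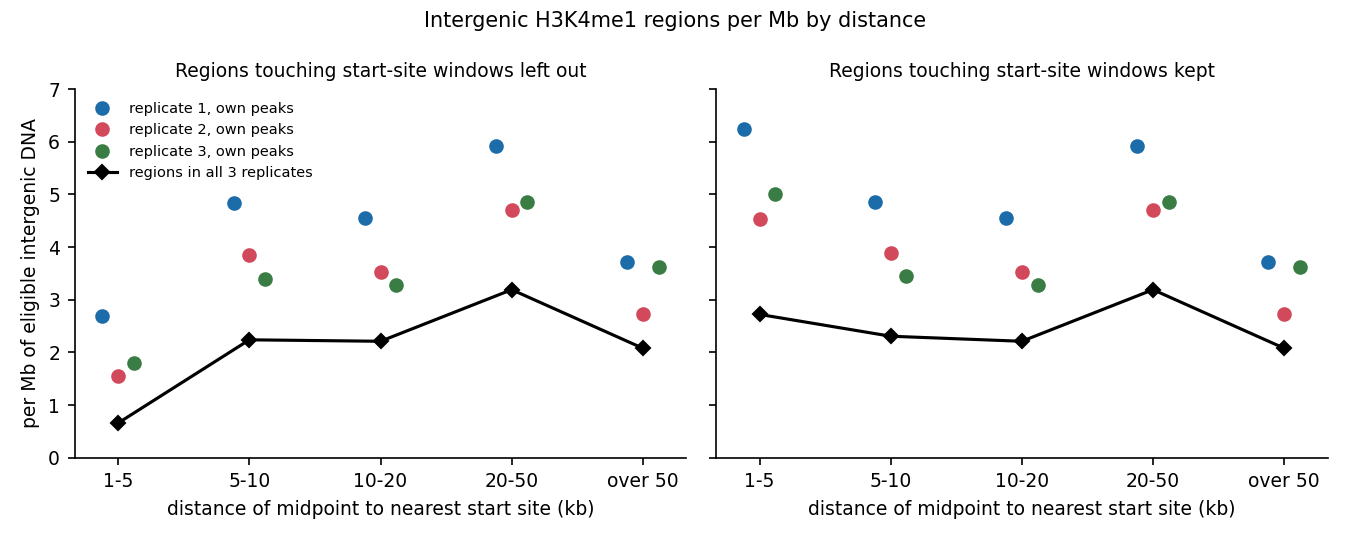
Regions per Mb of eligible intergenic DNA (vertical axis) in 5 ranges of distance from the nearest protein-coding start site in kb, with points for each replicate's own peaks and a line for regions in all 3 replicates. The left panel leaves out regions touching start-site windows, as the rule does, and the dip at 1 to 5 kb there, to 0.661 per Mb, is absent in the right panel, where they are kept and the value is 2.72.

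Most near regions lay upstream of their nearest gene, 764 against 351 downstream. This followed the DNA available, since genes themselves are left out: 68.5% of the near regions and 72.5% of the eligible DNA were upstream, or 2.303 and 2.78 regions per Mb upstream and downstream. Each replicate's own peaks were upstream in 68.7%, 66.9% and 69.6% of cases. A noncoding gene held the midpoint of 188 near regions (16.9%), and 168 (15.1%) touched the 1 kb around a noncoding start site.

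The 10 near regions of highest mean percentile ranged from 99.2 to 97.7. The first, 41.2 kb downstream of Mrpl23, a protein of the mitochondrial ribosome, spans H19, an imprinted noncoding RNA gene, at chr7:142567978-142582016. Its total signal was 519844, 633759 and 280595 pileup units in replicates 1, 2 and 3, and its highest pileup was 430, 413 and 291, so that all replicates placed it above percentile 98. Next came regions near Gpr84, a fatty acid receptor, at 99.2, near Trim8, a ubiquitin ligase, at 99.1, and near Ppp1r3b, a glycogen-targeting subunit of a phosphatase, at 98.8.

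A pair of these regions lay beside genes with known roles in the face. The region 20.01 kb upstream of Mn1, a transcriptional cofactor needed for the palate, had a highest pileup of 215, 216 and 115. The region 12.9 kb downstream of Foxc1, a forkhead factor of head mesenchyme, had 126, 126 and 112, at maxima spread over 5567 bp. The regions near Hhat, Src, a tyrosine kinase, Ackr3, which binds the chemokine Cxcl12, and Rspo1, which strengthens Wnt signals, stood at mean percentiles of 98.7, 98.7, 98.1 and 97.7. For Rspo1 replicate 3 was the lowest, at percentile 96.2 against 98.4 in both others.

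The near regions had 837 different nearest genes, which is 4.03% of the 20780 protein-coding gene symbols on chromosomes 1 to 19, or 4.73% of the 17692 that have eligible DNA of their own. A single near region was found for 638 genes, and 199 genes had 2 or more. The most were 6 for Gm10803 and 5 for Gm11733, both predicted genes, and 13 genes had 4, among them Hhat, Ngfr and Hes1. Hhat attaches palmitate to Hedgehog proteins, Ngfr is a neurotrophin receptor of crest cells and neurons, and Hes1 is a repressor induced by Notch. The regions of Ngfr lay 8.48 to 34.4 kb from its start site and those of Hes1 5.21 to 44.8 kb, with mean percentiles between 54.4 and 94.7 for Ngfr and between 64.5 and 94.6 for Hes1.

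With neighbours less than 50 kb apart joined, 524 of the 1115 near regions lay in 207 runs of 2 or more. The rule itself keeps the near regions within 50 kb of start sites, and how many runs this alone would give was not tested. Some neighbours nearly touch, as at Hhat, where one ended 16.9 kb from the start site and the next began at 17.3 kb. The largest runs held 8 regions. One covered 86.6 kb at chr1:192777886-192864468 around Hhat and Sertad4. The other covered 155 kb at chr2:93477817-93633192 and took in the 6 regions of Gm10803 with 1 each of Alx4, a homeodomain factor of the frontonasal mesenchyme, and Cd82. In the run at Hhat, the highest pileup in replicates 1, 2 and 3 was 162, 212 and 103 in the strongest region and 25, 43 and 44 in the weakest. Next to the strongest, a region 14.5 kb upstream of Hhat had 125, 116 and 93, and one 36.7 kb from Sertad4 had 143, 122 and 113. Other runs of 7 lay at Ngfr and Phb and around Foxp4.

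**Figure D3:**
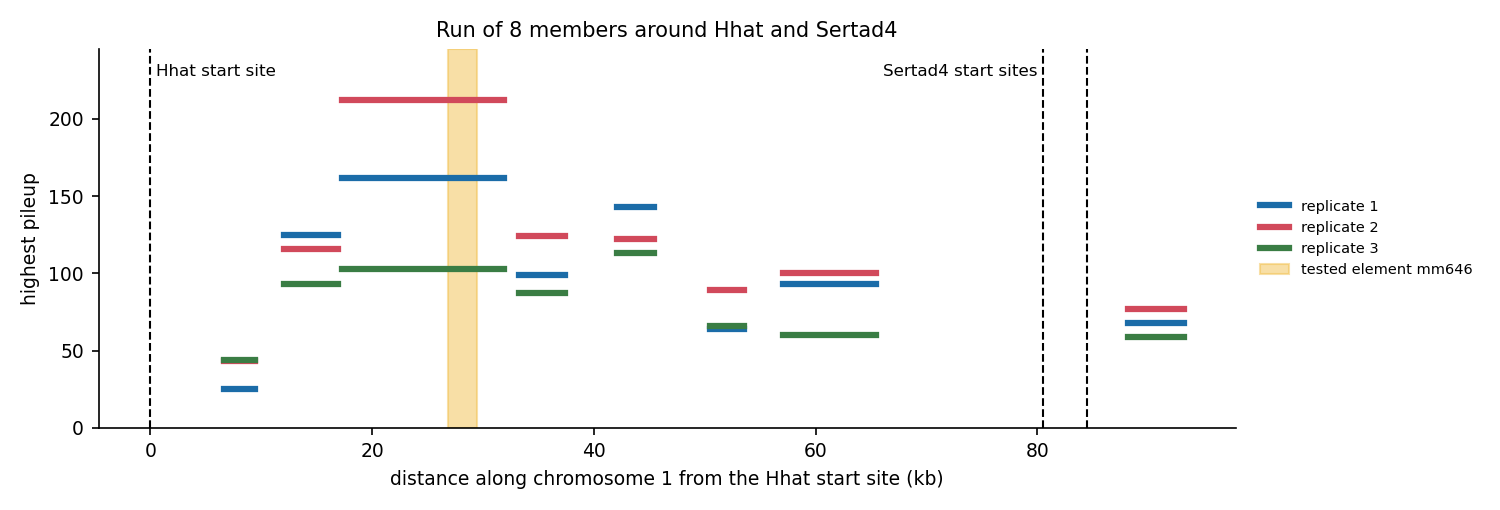
The 8 near regions around Hhat and Sertad4, drawn as bars at their distance in kb from the Hhat start site, at the height of the highest pileup in each replicate, with start sites as dashed lines and the tested element mm646 shaded. The region under mm646 is the highest in replicates 1 and 2, at 162 and 212, and the region nearest to Hhat is the lowest in all 3.

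Genes were then grouped by the signal or cell type they belong to, in 17 lists. Of 33 Wnt pathway genes, 13 (39.4%) were the nearest gene of 23 near regions, against 4.03% of all genes. This was 15.3 per Mb of their eligible DNA, against 2.44 over all genes. In each replicate's own peaks 18, 14 and 14 of the Wnt genes had a peak. The genes were 3 ligands (Wnt10a, Wnt11, Wnt16), 5 receptors (Fzd1, Fzd2, Fzd4, Fzd7, Fzd10), the secreted modulators Sfrp1, Sfrp2 and Rspo1, and the feedback inhibitors Axin2 and Nkd1. Lef1 and the other nuclear factors of the list had none.

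Wnt11, a ligand of noncanonical signalling, had 4 near regions, at 36.2 and 16.4 kb upstream and 30.8 and 38.9 kb downstream. The strongest by rank, at 36.2 kb, had total signals of 115911, 148412 and 77965, and the one at 16.4 kb had 75487, 72707 and 25372, at percentiles 84.2, 70.8 and 26.4. The latter was thus high in replicates 1 and 2 and low in replicate 3. Among the receptors, Fzd2 had 3 regions, of which the one 24.1 kb downstream stood at percentiles 96.8, 96.2 and 94.7. Fzd10 also had 3, and its region 18.9 kb downstream, with a highest pileup of 238, 189 and 102, had its 3 maxima within 7 bp. Fzd7 had 3 in a row upstream, at 17.4, 24.8 and 32.5 kb, with mean percentiles of 28.6, 59.4 and 87.0.

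Of 31 BMP and TGF-beta genes, 7 or 6 had a near region with the strongest 10000 peaks or the stronger 50% of each list. With all peaks, 12 (38.7%) had 14 near regions, or 9.42 per Mb, against 4.03% and 2.44 over all genes. They were the ligands Bmp2, Bmp4 and Bmp7, the antagonist Nog, the receptors Tgfbr1 and Tgfbr2, the transducers Smad3 and Smad5, the inhibitory Smad6 and Smad7, and the target genes Id1 and Id2. Id1 had a region on either side, 7.88 kb upstream with total signals of 98855, 131503 and 56525 and 4.44 kb downstream with 74131, 102481 and 62411. The Smad6 region, 37.3 kb upstream, stood at percentiles 91.9, 90.2 and 83.2, and the one of Id2, 28.6 kb upstream, at 83.6, 81.0 and 81.9. The stronger of the 2 Smad7 regions, 40.1 kb downstream, stood at 75.8, 59.8 and 49.5. The lowest mean percentile of the list was that of the receptor Tgfbr1, whose region stood at percentiles 36.7, 5.14 and 0.421.

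Of 13 Hedgehog genes, 2 had a near region with either selection of stronger peaks. With all peaks, 4 (30.8%) had 8 near regions, or 14.9 per Mb, against 4.03% and 2.44 over all genes. These were the transducer Smo and the co-receptors Boc, Cdon and Gas1, which bind Hedgehog at the cell surface, whereas Shh, its receptor Ptch1 and the Gli factors had none. Boc had 3 regions upstream, at 6.63, 20.8 and 44.2 kb, and the last had a highest pileup of 115, 127 and 109, with percentiles of 85.2, 73.9 and 84.3. In the first and second, the maxima of the 3 replicates fell within 1 and 4 bp. Gas1 had 3 downstream, at 3.98, 20.2 and 29.9 kb, with mean percentiles of 51.1, 22.6 and 67.8. Cdon and Smo had 1 region each, with mean percentiles of 33.0 and 30.3.

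Of 19 FGF genes, 4 (21.1%) had 6 near regions, or 7.53 per Mb, against 4.03% and 2.44 over all genes. With the stronger 50% of each list 2 genes had one. Dusp6, a phosphatase induced by FGF, had 3, at 34.7 and 20.1 kb upstream and 24.0 kb downstream, of mean percentiles 60.7, 46.7 and 24.1. The region of the receptor Fgfr3 was the longest of all near regions, at 14953 bp, with total signals of 207592, 340956 and 109509. The feedback inhibitors Spry1 and Spry4 had 1 each, with mean percentiles of 69.4 and 48.3.

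Of 39 facial mesenchyme factors, 13 (33.3%) had 17 near regions, or 8.21 per Mb, against 4.03% and 2.44 over all genes. Lhx8, a LIM homeodomain factor of the jaw and teeth, had 3 regions, and the strongest, 10.1 kb upstream, stood at percentiles 82.7, 71.3 and 77.8. Twist2, a repressor of dermal mesenchyme, had 2 upstream, of which the one at 42.5 kb had total signals of 247724, 296093 and 231238 and the highest pileups of 302, 292 and 154. Six2 had 2, and the replicates disagreed on the one 10.1 kb upstream, at percentiles 77.5, 43.2 and 2.57. Foxc1 had the region described above. Factors with 1 region each included Alx4, Barx1, Foxd1, Foxf2, Lhx6, Nr2f1 and Shox2.

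Of the 10 whisker genes followed in the study, Bmp2 and Bmp4 had a near region (20%), against 4.03% of all genes. This was 4.62 near regions per Mb, against 2.44 over all genes, in a list too short to place it. The Bmp2 region, 14.2 kb downstream, had total signals of 31252, 66724 and 48352 at percentiles 54.6, 67.6 and 65.9, and the Bmp4 region, 46.0 kb upstream, had 24501, 27676 and 39764 at percentiles 42.2, 13.7 and 56.1. Lef1, the Wnt effector, had no near region, but 4 regions beyond 50 kb, 3 inside the gene and 1 at a start site, and Prdm1, a transcriptional repressor, had 2 beyond 50 kb and 1 inside. Edar, the ectodysplasin receptor, had 2 inside. For Shh, Gli1, Krt17, Wnt10b and Sox2 no region of any kind was found in all 3 replicates, although Shh and Sox2 have 86.6 and 96.9 kb of eligible DNA. Gli1, Krt17 and Wnt10b have 5.22, 2.10 and 5.44 kb.

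Lists of the other cell types that a pad can hold are short, and their densities overlapped those of the signalling lists. Near regions per Mb were 10.95 for muscle, 8.97 for red cell precursors, 7.91 for housekeeping genes and 5.85 for endothelium. Surface ectoderm had 3.14, matrix and adhesion 3.06 and sensory neurons 2.13, near or below the 2.44 over all genes. The share of all genes with a near region was 4.03%, at which lists this short hold few or none. Muscle thus lay above the BMP and facial lists, and red cell precursors and housekeeping genes above the FGF list. Of 18 surface ectoderm genes, 2 had a near region, Grhl2 and Tfap2c, both epithelial factors, at mean percentiles of 81.5 and 81.4. Of 12 muscle genes, Des and Chrna1 had 2 regions each, and the stronger one of Des, which encodes the filament protein desmin, stood at 84.3. Of 14 endothelial genes, Erg had 2 and Cdh5 1, with the best at 57.2. Red cell precursors gave 2 of 12 genes, among them Ank1, at 34.9, and sensory neurons gave Neurog1 of 13, at 34.1. Schwann cell and pigment genes gave 0 of 11. Of 22 matrix and adhesion genes, Col1a2 had 2 and Itga9 1. The region 18.6 kb upstream of Col1a2, which encodes a chain of type I collagen, had total signals of 146341, 194025 and 240757, highest in replicate 3. Housekeeping genes gave 2 of 14, among them Ywhaz. Olfactory receptor genes gave 0 of 1127, in 20.3 Mb of eligible DNA.

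**Figure D4:**
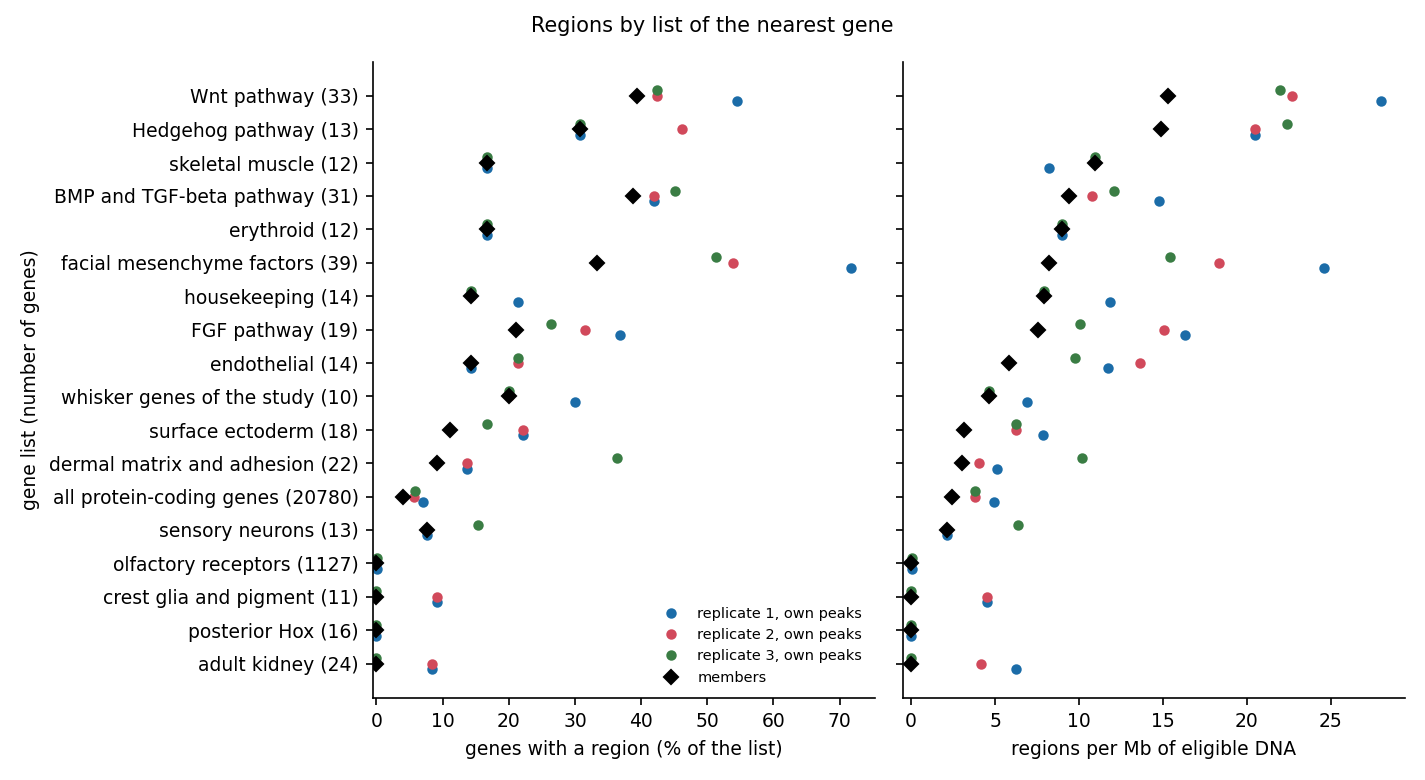
For each gene list, the share of its genes in percent that are the nearest gene of a region (left) and the regions per Mb of eligible DNA (right), with diamonds for near regions (members) and points for each replicate's own peaks under the same location rule. The Wnt list leads on the right at 15.3 per Mb, against 2.44 for all protein-coding genes, and kidney, posterior Hox and olfactory receptor lists stand at 0 for near regions.

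A readout that the rule did not use came from enhancers tested in transgenic mouse embryos, the VISTA elements, whose positions and tissues of activity are given in the RefSeq annotation of GRCm38. Of 617 elements on chromosomes 1 to 19, 136 met the location rule, and 37 of these overlapped a near region. Elements with activity in facial mesenchyme, nose or branchial arch overlapped one in 15 of 37 cases (40.5%), the others in 22 of 99 (22.2%). Counting any peak, 62.2%, 62.2% and 59.5% of the face elements were overlapped in replicates 1, 2 and 3, and 33.3%, 35.4% and 28.3% of the others. The difference was 28.9 ± 2.19 percentage points (higher in 3 of 3 replicates, exact sign-flip p = 0.25). All replicates score the same elements, so this spread does not measure the uncertainty from the small number of elements. Of the 37 face elements, 24 were also active in the limb.

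Elements active in the limb were overlapped at least as often in these counts, a difference that was not tested. A near region overlapped 22 of 42 limb elements (52.4%), 10 of 20 of facial mesenchyme (50%), 9 of 21 of branchial arch (42.9%) and 5 of 12 of nose (41.7%). Among limb elements with no face activity it was 11 of 18 (61.1%), and among face elements with no limb activity 4 of 13 (30.8%). Among tissues with 20 or more elements, heart had the lowest share, at 4 of 39 (10.3%), and without face activity at 3 of 33 (9.09%). Forebrain, midbrain and hindbrain elements lay between, at 32.4%, 32.4% and 29.7%. Replicate by replicate, heart elements were overlapped by any peak in 17.9%, 15.4% and 15.4% of cases and limb elements in 71.4%, 71.4% and 66.7%, with heart below limb in 3 of 3 replicates. Tissues share elements, and the choice of which DNA was tested is not random.

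**Figure D5:**
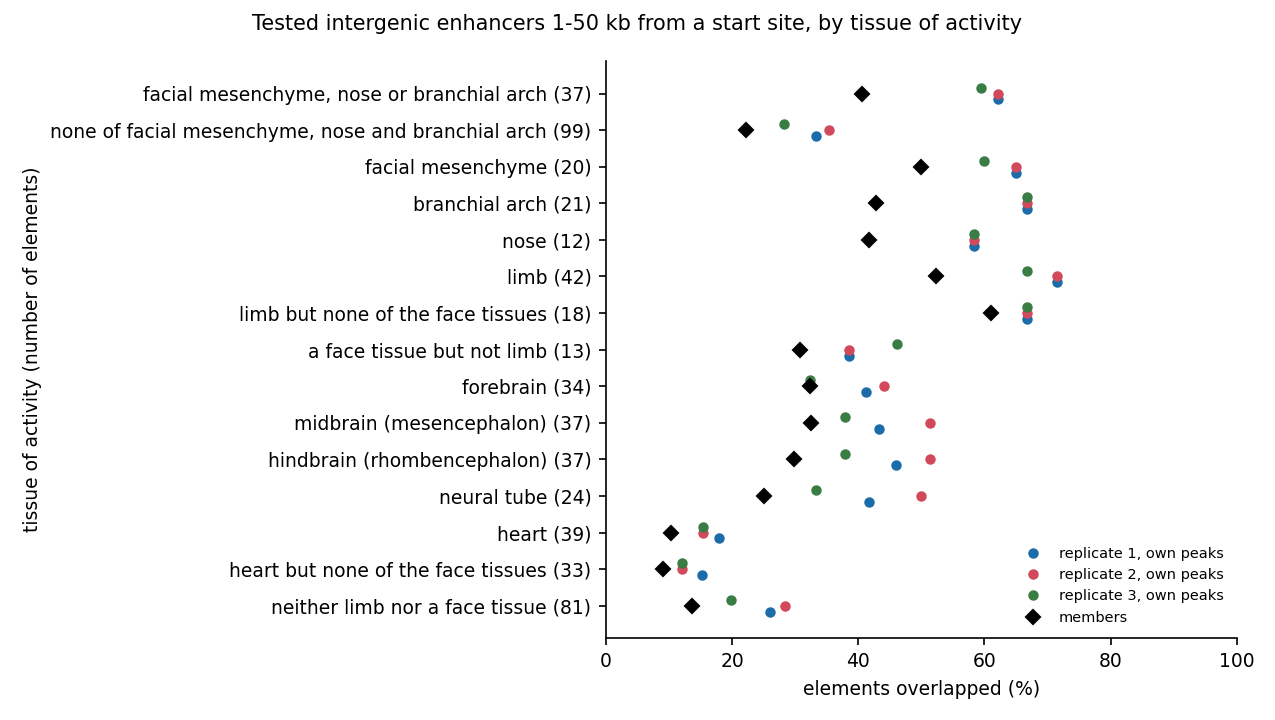
Share in percent of tested intergenic enhancers, grouped by tissue of activity with the number of elements, that overlap a near region (diamonds) or any peak of a replicate (points). Face and limb elements reach 40.5% and 52.4% for near regions, and heart elements 10.3%.

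The elements named here were chosen after their values were seen. Element mm646, at chr1:192798093-192800700, is active in branchial arch, facial mesenchyme, nose, limb, forebrain and somite and lies under the maximum of the strongest region at Hhat. Element mm47, active in branchial arch, limb, liver and somite, lies under that of the region at H19. Element mm448, active in facial mesenchyme, nose and limb, falls in a region 33.8 kb upstream of Emx2, a homeodomain factor, at percentiles 81.6, 76.0 and 81.2. Element mm745, active in nose and limb among others, falls in the Gas1 region at 29.9 kb. Element mm1351, active in ear and facial mesenchyme, falls in a weak region, at percentiles 20.1, 23.6 and 11.3.

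Motifs were searched for in the 300 bp around the median maximum, on both strands, and the share of near regions with a match was set beside that of the 7725 other regions found in all 3 replicates. Of the 19 motifs, those named were chosen after their values were seen. The GLI core TGGGTGGTC was in 11 near regions (0.987%), in 0.427% of all the others, and in 0.826% of the intergenic regions beyond 50 kb and 0.224% of those inside genes, so that the near regions stood close to the farther intergenic ones. It was found at the maxima of the single replicates in 0.897%, 0.897% and 0.717%, above the others in 3 of 3, with a mean difference of 0.401 ± 0.0969 percentage points. With regions required in replicates 2 and 3 only, the log2 ratio of these shares was 0.22 in place of 1.21. None of the 11 was nearest to a gene of the Hedgehog list. The TCF/LEF core CTTTGAT, which Lef1 binds, was in 54 near regions (4.84%) against 3.78%, and its variant CTTTGAA in 70 (6.28%) against 5.51%. Beyond 50 kb the shares were 4.23% and 5.99%, close to the near regions, inside genes 4.06% and 5.58%, and at start sites 2.53% and 4.74%. The AP-2 core GCCNNNGGC, bound by Tfap2 factors, was in 153 (13.7%) against 12.2%. Differences at the single maxima were positive in 3 of 3 replicates for the last 3 cores, with means of 0.574 ± 0.481, 0.840 ± 0.545 and 1.64 ± 1.32 percentage points.

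The NFI core TTGGCA was in 170 near regions (15.2%) against 17.2%, the HNF1 core GTTAATNA, of kidney and liver factors, in 17 (1.52%) against 2.1%, and the ETS core CCGGAAG in 15 (1.35%) against 1.85%, each lower in 3 of 3 replicates. At start sites NFI and HNF1 stood at 15.5% and 1.39%, close to the near regions. Beyond 50 kb they stood at 19.1% and 2.4%, and inside genes at 17.0% and 2.2%. The forkhead core TGTTTAC was in 41 (3.68%) against 4.25%. The homeobox core TAATTA was in 51 (4.57%) against 4.61%, near its background. The CATCTG E-box was in 293 (26.3%) against 27.7%, and lower at the single maxima in 3 of 3 replicates, while with regions required in replicates 1 and 3 only the log2 ratio was 0.13 in place of -0.08. For the other 9 motifs the share in near regions was between 0.913 and 1.06 times that in the others, and of these the MEF2 core was in 1 near region, with a log2 ratio of -0.01 that was 1.09 without replicate 1 and 0.90 without replicate 3. The 1814 windows 3 kb outside the near regions, free of peaks, held the AP-2 core in 6.28% and the homeobox core in 6.84% of cases. CTTTGAT was in 3.91% of these windows and CTTTGAA in 7.11%, the latter more often than in near regions. Those windows had a median GC of 46.0% against 52.0% in the near regions, and the part of base composition in the motif shares was not tested.

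Some near regions stood apart in shape. In 7 of them the peaks were shorter than 1 kb in all 3 replicates, and their highest pileups ran from 88 to 3036. The region 26.3 kb downstream of Mrgprd, a sensory neuron receptor, had a highest pileup of 3036, 981 and 824 in peaks of 538, 581 and 673 bp, against medians of 47, 55 and 42 over all near regions. Repeat-masked bases made up from 79.8% to 99.0% of 5 of the 7, and 30.5% and 5.85% of those near Bcl2a1a and Gm10800. All 7 had their highest total signal in replicate 1. Without them 1108 near regions were left, and the mean percentile was 62.0 in place of 62.2.

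At the limits of the rule, the farthest near region, 49.9 kb from Scara3, had a highest pileup of 47, 45 and 60, and the nearest region left out, just over 50 kb from Optc, had 11, 42 and 33. Their mean percentiles were 70.9 and 25.5. The midpoint closest to a start site was that of the short region at Gm10800, at 2.24 kb, and the closest edge that of a region 1005 bp from Usp3, at percentiles 23.2, 1.76 and 32.6. After the region of Fgfr3, the shortest region left out for length had 15145 bp, beside Ier5, one of 21 left out in this way.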

How the data were processed

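CUT&Tag for H3K4me1 was done by the authors on wild-type whisker pads at embryonic day 12, with 3 samples, here replicates 1 to 3 after the pad number in their titles. Nothing states that the pads came from separate embryos, so p-values refer to these samples alone, and differences between the samples may be technical. The submitters' processing notes name Bowtie2 2.3, SAMtools 0.1.19, bedtools and SEACR 1.3 and the build mm10. The authors called peaks in each replicate with SEACR in stringent mode, without IgG, keeping the top 1% of signal blocks. The deposited signal columns hold the summed pileup (total signal) and the highest pileup of each peak, with no scaling to depth. Read depth is not in the files, so no interval for counting error is given, and a fixed share of blocks makes peak numbers no measure of enrichment.

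Peaks were merged and placed with Python 3.11.15, numpy 2.4.6, pandas 2.3.3, scipy 1.17.1 and pysam 0.24.0, with figures from matplotlib 3.10.9. Genes and 39515 start sites of protein-coding transcripts came from the basic set of GENCODE vM21 for GRCm38, sequence and VISTA elements from RefSeq for the same build. Coordinates are 1-based. A region belongs to the gene of the nearest start site. Eligible DNA is sequenced DNA outside protein-coding genes. Own peaks are the unmerged peaks of 1 replicate under the same location rule. Replicates were compared by medians within each replicate and an exact two-sided sign-flip permutation test. On 1000 simulated regions, the kind was recovered in 100%.

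The near regions, gene lists and motifs were chosen with earlier results of these data known, and the use of VISTA elements was added after the files were seen. Genes named are the whisker genes, those nearest to the 10 near regions of highest mean percentile, the 5 with the most near regions, up to 4 of each other list and those at the limits. Further genes with near regions in the Wnt, BMP and facial lists, and genes at runs, tested elements and short regions, were named after their values were seen. For sequences, the strongest near region of each of 6 lists with maxima within 200 bp was taken, and 2 were added after seeing the data. Some genes that this rule would name are not reported here.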

Additional observations from a re-analysis of the deposited data

How the results depend on the processing

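The number of near regions, 1115 (12.6% of shared regions), was 518 (11.75%) with the stronger 50% of each peak list, 1753 (19.83%) with all annotated genes in place of protein-coding ones, 584 (6.606%) with a limit of 25 kb and 1718 (19.43%) with one of 100 kb. Leaving out a replicate gave 1183 to 1539. With the strongest 10000 peaks, the mean of the median peak lengths was 4111 bp and the median distance to a start site 24.4 kb, and with the stronger 50% these were 4811 bp and 24.74 kb and 423 genes had a near region. The distance was 24.1 kb with peaks less than 1 kb apart joined and 17.39 kb with all genes, where 57.33% were upstream. GC over the whole region was 48.31%. Maxima lay within 200 bp in 53.21% of pairs and within 1000 bp in 82.18%, against 69.1% within 500 bp.

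Differences from regions beyond 50 kb changed sign in these cases. In length it was 60.5 bp with the stronger 50%, against -62.7 bp. In total signal percentile it was -0.1596 with joined peaks and -0.6391 with all genes, against 0.604, and in maximum signal percentile 0.6319 with the strongest 10000 peaks, against -0.0599. The difference in percentile from regions inside genes was 1.661 with signal divided by length, against -2.55. The log2 density ratio of 1 to 5 kb over 20 to 50 kb was 0.025 with regions touching start-site windows kept, against -1.39, since the rule removes those regions. For the other changes the cause was not tested.

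Leaving out each replicate in turn gave ranges of 3326 to 3620 bp in length, 56.86 to 58.77 in total signal percentile, 56.18 to 58.39 in maximum signal percentile, 22.58 to 23.96 kb in distance and 66.02% to 76.54% of maxima within 500 bp. Against regions beyond 50 kb the ranges were -0.06919 to 1.191 in total percentile, -1.649 to 0.2468 in maximum percentile and -0.6357 to 1.447 points in the share of peaks found in all replicates, with 0.4349 without replicate 1. The difference of face from other tested elements was 27.8 to 30 points in these runs. Of 436 values under alternatives, 152 of the main results and 222 of single lists, genes and motifs were judged unchanged. Differences and ratios with a sign-flip test were judged by direction only, and counts by a factor of 1.5. Motif ratios were judged by a fixed limit in log2, shares by a binomial interval and most other values by the spread between replicates. Values judged by direction could move further, as the log2 density ratio did, to -1.97 with the stronger 50% against -1.39 ± 0.234. The Wnt list had 10 to 14 genes and the facial list 11 to 19, while the BMP list had 7 with the strongest 10000 peaks and 6 with the stronger 50%, and the Hedgehog list 2 with either. The FGF list had 2 with the stronger 50%. With either selection, whisker, endothelial and housekeeping lists had 1 gene each in place of 2, red cell precursors 0 in place of 2 and sensory neurons 0 in place of 1. Added after seeing the data were the comprehensive transcript set (1143 near regions), the kept start-site windows (1254), the exclusion of short peaks and the runs on tested elements and recurrence. No paired analysis was possible because the only other group, IgG, was not analysed here. Read depth is unknown, and 3 replicates allow no p below 0.25.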
